A study of Homo sapiens with 2 samples.

Results

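Expressed members of the ZNF family of zinc finger genes were described in HGC27 cells, an established line from a human gastric cancer, with and without added LINC01133, a long non-coding RNA. A gene was a member when it was protein-coding, its symbol was ZNF followed by a number and at most 1 letter, and the mean of its 2 FPKM values, 1 from each library, was at least 1. FPKM is the number of fragments of a gene scaled to its exon length and to the fragments counted in the library. Of the 28303 genes listed, 466 were protein-coding ZNF genes, and 249 of these were members. The other 217 ZNF genes lay under the mean of 1. The members were thus chosen by their measured FPKM in both libraries, so the levels below are a description and carry no test.

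The study held 2 libraries of poly(A)-selected RNA, 1 in each group. The control cells carried the plasmid pcDNA3.1-control and the other cells pcDNA3.1-linc01133. Both cultures received their plasmid with the reagent Turbofect and were harvested 48 h later. The 2 groups thus shared the cell line, the plasmid backbone, the reagent and the time. Transfection was transient in a single line, with no second line or clone. With 1 library in each group no difference below has a replicate check, and no p-value is given. All differences compare these 2 libraries, called the control and the LINC01133 library.

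Each zinc finger of the classical type is a short loop of protein held around a zinc ion by a pair of cysteines and a pair of histidines. Arrays of such fingers read DNA sequence, and the linker that joins neighbouring fingers is among the most conserved stretches in the family. Many ZNF proteins also carry a KRAB domain, which recruits the corepressor TRIM28 (KAP1) and, through it, histone methyltransferases and heterochromatin proteins. A large part of the KRAB genes sit in tandem clusters on chromosome 19, and their best known targets are retroelements. Other ZNF proteins lack KRAB and work as ordinary transcription factors, RNA-binding proteins or ribosome factors.

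The coding sequence of 1 finger is shown for each of 6 members, because base composition separated the members with the largest and the smallest differences. ZNF92 and ZNF260 had the largest log2 ratios of LINC01133 over control and ZNF358 and ZNF837 the smallest. ZNF146 and ZNF595 were chosen after their values were seen, as highly expressed members with low GC content and unlike ratios. The sequences are from GENCODE 29 transcripts on GRCh38, written 5′ to 3′ on the coding strand, and capitals mark the codons of the zinc-binding cysteines and histidines. The ZNF92 finger lies in exon 4 at chr7:65398721-65398804 (plus strand), the ZNF260 finger in exon 2 at chr19:36514903-36514986 (minus), and the ZNF146 finger in exon 3 at chr19:36236576-36236659 (plus). The ZNF595 finger lies in exon 4 at chr4:86276-86359 (plus), the ZNF837 finger in exon 3 at chr19:58368157-58368240 (minus), and the ZNF358 finger in exon 2 at chr19:7519783-7519866 (plus).
ZNF92: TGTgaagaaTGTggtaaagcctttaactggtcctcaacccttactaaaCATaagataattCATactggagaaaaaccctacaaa
ZNF260: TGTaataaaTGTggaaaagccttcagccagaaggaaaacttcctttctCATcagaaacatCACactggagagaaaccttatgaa
ZNF146: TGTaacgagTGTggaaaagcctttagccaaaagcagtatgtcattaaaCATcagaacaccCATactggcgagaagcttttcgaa
ZNF595: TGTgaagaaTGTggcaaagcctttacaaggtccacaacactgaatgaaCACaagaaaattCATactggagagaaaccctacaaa
ZNF837: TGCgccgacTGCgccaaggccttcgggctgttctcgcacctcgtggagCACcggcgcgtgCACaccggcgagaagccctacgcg
ZNF358: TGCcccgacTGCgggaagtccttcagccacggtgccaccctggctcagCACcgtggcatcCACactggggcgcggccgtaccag
Each finger is 84 bases long and encodes 28 residues. Of the bases, 35.7% were G or C in ZNF92, 38.1% in ZNF260, 41.7% in ZNF146 and 39.3% in ZNF595, against 71.4% in ZNF837 and 70.2% in ZNF358. The ZNF92 and ZNF837 fingers shared 53.6% of their residues and 52.4% of their bases. In the ZNF92 finger both zinc-binding cysteines were written TGT and both histidines CAT, whereas ZNF837 used TGC and CAC throughout.

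Counted fragments numbered 15666629 for the control and 16302581 for the LINC01133 library. LINC01133 was at 0.0809 FPKM in the control and at 1.44 in the other library, from 4 and 74 fragments. The cells were labelled as a gastric cancer line, and the epithelial and gastric markers were close to 0. Of the 4 epithelial markers listed, KRT18 was at 0 in both libraries and the summed level was 0.361 FPKM in the control and 0.498 in the LINC01133 library. Of the 3 gastric markers listed, MUC5AC and TFF2 were at 0 in both, and the sum was 0.0227 and 0.0364 FPKM. Of the 4 mesenchymal markers, VIM stood at 198 and 210.0 FPKM, FN1 at 3.50 and 3.62, ZEB1 at 3.06 and 7.82, and CDH2 at 0.0516 and 0.0744. The 3 fibroblast markers summed to 228 and 186 FPKM, nearly all of it COL1A1 (209 and 162), while COL1A2 was at 3.53 and 2.99 and DCN at 15.1 and 21.1 FPKM. The part of these cell markers in the ZNF results was not tested. In such bulk RNA, fewer cells that express a gene and less of its RNA in each cell cannot be told apart.

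Most expressed ZNF genes were low. The median level over the members was 1.89 FPKM in the control and 3.30 FPKM in the LINC01133 library, while the levels ran from 0.279 to 129.5 FPKM in the control and from 0.976 to 91.8 FPKM in the other. The members took 84117 fragments in the control, 0.537% of the library, and 112666 in the LINC01133 library, 0.691%. Over all 466 ZNF genes the share was 0.576% and 0.767%. ZNF genes with any fragment numbered 448 in the control and 457 in the LINC01133 library, and those at 1 FPKM or more 201 and 277. The intervals below are 95% intervals of the ratio and cover counting error only, since amplified fragments are not independent molecules.

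Between the libraries, 45 of the 249 members were at least 2-fold higher with LINC01133 and 0 at least 2-fold lower. A difference counted as 2-fold when the log2 ratio of FPKM + 1, LINC01133 over control, reached 1 or -1. The 45 were 18.1% of the members, beside 11.9% of all 11945 genes past the same filter and 11.7% of the 10335 protein-coding genes among them. For lower values the background was 0.444% of all genes and 0.0484% of the protein-coding genes. The median log2 ratio was 0.37 over the members and 0.10 over all genes. The log2 ratio lay above 0 for 176 members and under 0 for 73, and ran from -0.82 to 2.39. Of all 11945 genes it lay above 0 for 6619 and under 0 for 5326. Other scalings of the libraries shifted every ratio of plain FPKM by -0.21 (median of ratios and trimmed mean of M values) or -0.42 (upper quartile) on the log2 scale, and ratios of FPKM + 1 by less. They left 32, 31 and 20 members at least 2-fold higher, beside 941, 923 and 583 of all 11945 genes. At least 2-fold lower were 0, 0 and 2 members, beside 103, 107 and 465 of all genes. The median log2 ratio of FPKM + 1 was then 0.24, 0.23 and 0.09 over the members and -0.07, -0.07 and -0.23 over all genes.

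**Figure D1:**
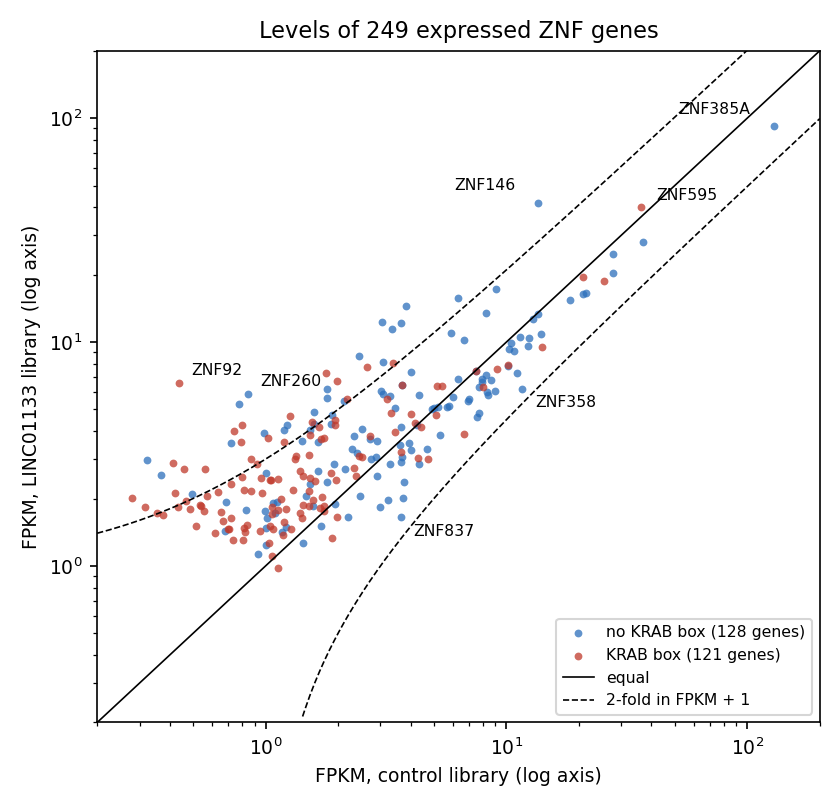
FPKM of each of the 249 members in the control library (horizontal, log axis) and in the LINC01133 library (vertical, log axis), red with and blue without a KRAB box, with a solid line at equal levels and dashed lines at 2-fold in FPKM + 1. The 45 members above the upper dashed line were at 0.279 to 13.5 FPKM in the control, 0 members lie under the lower dashed line, and ZNF385A, the highest member, lies under the solid line.

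The choice of members bears on these counts. At 1 FPKM or more in both libraries stood 195 members, of which 24 (12.3%) were at least 2-fold higher. The 11.9% over all genes rests on the mean filter, so it is not a matched share for these 195. A further 53 reached 1 FPKM only in the LINC01133 library and 21 of them (39.6%) were at least 2-fold higher, but a gene in that class had to be higher there. Shares over all genes in these 2 classes are not given here. A single member reached 1 FPKM only in the control. The members nearest to the threshold were ZNF527 (0.516 FPKM in the control and 1.51 in the LINC01133 library), ZNF33B (0.615 and 1.41) and ZNF616 (0.731 and 1.30). Just outside it lay ZNF107 (0.294 and 1.70), ZNF420 (0.444 and 1.52) and ZNF48 (1.31 and 0.639). Over all 466 ZNF genes with no filter, 46 were at least 2-fold higher and 0 lower, with a median log2 ratio of 0.28. Without the filter the background was 5.71% higher and 0.385% lower over all genes listed, and 7.49% and 0.037% over the protein-coding ones. ZNF107 was the only gene under the mean of 1 among those 46. Of the 217 genes under it, 5 were listed at 0 in both libraries.

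Whole numbers of fragments could be recovered for 236 members. Over all 249 members the median was 162 fragments in the control and 273 in the LINC01133 library. The interval of the FPKM ratio lay above 1 for 134 of the 236, under 1 for 48, and held 1 for 54. Such counts over all genes are not given here, so these show no surplus particular to the members. All 45 members at least 2-fold higher had a lower bound above 2. These intervals are of plain FPKM, and a log2 ratio of FPKM + 1 of at least 1 already requires a plain ratio above 2. The bounds were thus largely set by how the 45 were chosen and are no separate support for them. The spread between cultures was not measured.

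The largest log2 ratio was that of ZNF92, a KRAB gene with 11 fingers at chr7:65373799-65401135 on the plus strand (ENSG00000146757). It measured 0.436 FPKM in the control and 6.55 FPKM in the LINC01133 library, from 24 and 375 fragments. The FPKM ratio was 15.0 (9.94 to 23.7) and the log2 ratio 2.39. ZNF260, a protein made almost only of fingers, measured 0.847 and 5.85 FPKM, a ratio of 6.91 (5.45 to 8.86). ZNF518A measured 0.779 and 5.27 FPKM, a ratio of 6.76 (5.63 to 8.17). These 3 genes were under 1 FPKM in the control and above 5 FPKM in the other library.

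ZNF711, an X-linked gene whose loss causes intellectual disability and whose protein works with the demethylase PHF8, was already expressed in the control at 3.04 FPKM and measured 12.2 FPKM in the LINC01133 library (log2 ratio 1.71). ZNF367 measured 3.82 and 14.5 FPKM (log2 ratio 1.68), and ZNF12, a KRAB gene, 1.78 and 7.25 FPKM (1.57). A further 3 of the 10 largest were low in the control: ZNF117 at 0.322 against 2.96 FPKM, ZNF267 at 0.796 against 4.24 FPKM and ZNF138 at 0.739 against 4.00 FPKM. ZNF146 was the highly expressed member of the 10. This gene encodes a protein of fingers alone and is overexpressed in several carcinomas. It measured 13.5 FPKM in the control and 41.9 in the LINC01133 library, from 876 and 2831 fragments, a ratio of 3.11 (2.88 to 3.35). Of its exon bases 10.8% are also exon bases of another gene, so a small part of its fragments could belong elsewhere.

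At the other end, ZNF358 measured 11.7 FPKM in the control and 6.20 FPKM in the LINC01133 library, from 378 and 209 fragments. Its FPKM ratio was 0.531 (0.447 to 0.631) and its log2 ratio -0.82. ZNF358 (ENSG00000198816, chr19:7515292-7521026, plus strand) shares 34.4% of its exon bases with other annotated genes. ZNF837 measured 3.66 and 1.65 FPKM, a ratio of 0.452 (0.323 to 0.626) and a log2 ratio of -0.81. Neither gene reached the 2-fold line on the scale of FPKM + 1.

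The next 8 by log2 ratio were ZNF653, ZNF205, ZNF668, ZNF408, ZNF362, ZNF777, ZNF213 and ZNF784, with log2 ratios between -0.65 and -0.51. Their control levels lay between 3.23 FPKM (ZNF784) and 14.1 FPKM (ZNF777), and the upper bound of the ratio was under 1 for each of them. ZNF408 is known from inherited retinal disease. ZNF668 shares 36.5% of its exon bases with other genes, ZNF205 17.1% and ZNF653 14.5%, so these 3 are less certain. All 10 of these lowest members had a GC content of 58.3% or more in their transcript, and all 10 highest had 43.9% or less.

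**Figure D2:**
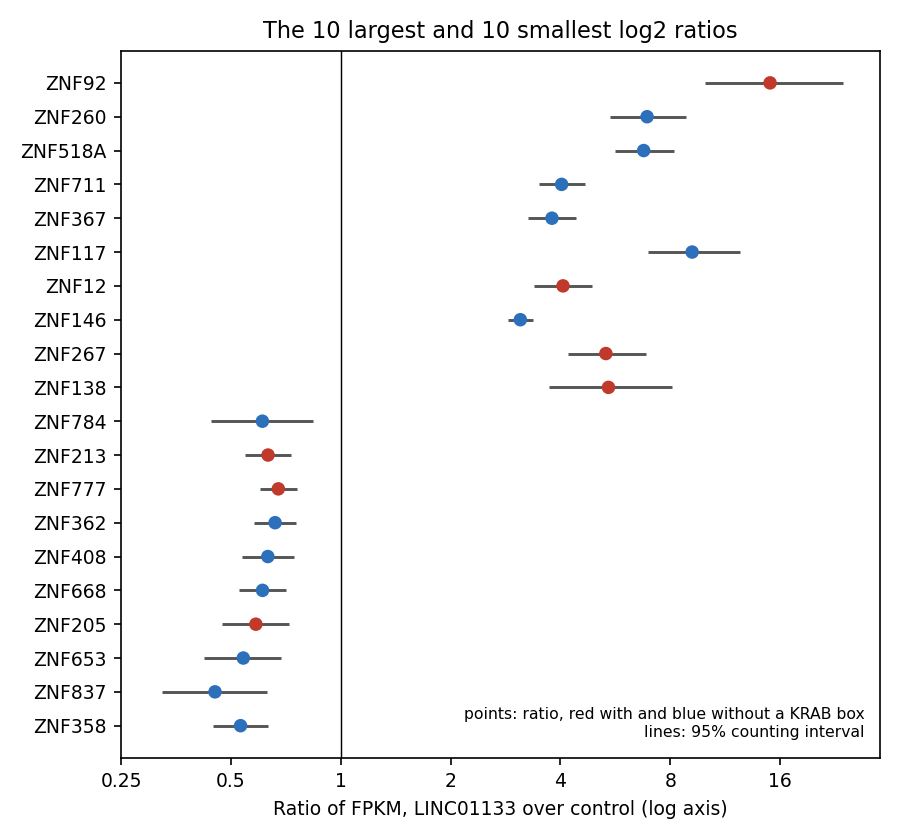
Ratio of FPKM, LINC01133 over control (horizontal, log axis), for the members at each end of the log2 ratio, 10 at the top and 10 at the bottom, with points for the ratio (red with and blue without a KRAB box) and lines for the 95% counting interval. The upper 10 run from 3.11 (ZNF146) to 15.0 (ZNF92), the lower 10 from 0.452 (ZNF837) to 0.674 (ZNF777), and no interval reaches 1.

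The 6 members with the highest mean level differed little or were lower in the LINC01133 library, apart from ZNF146. ZNF385A, which binds RNA and p53, was by far the highest, at 129.5 FPKM in the control and 91.8 FPKM in the other library (log2 ratio -0.49). ZNF595 measured 36.3 and 40.2 FPKM, ZNF467, a regulator of fat and bone cell formation in mice, 36.8 and 28.0 FPKM, and ZNF622, a factor in maturation of the large ribosomal subunit, 27.7 and 24.7 FPKM. ZNF503, a developmental corepressor of the NET family, measured 27.7 and 20.3 FPKM. Over the 67 members with a mean of at least 5 FPKM the median log2 ratio was -0.12 and 10 were at least 2-fold higher. The share over all genes with that filter is not given here. The correlation of mean level with the log2 ratio was -0.34 (Spearman, across 249 genes, as a description).

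Base composition ordered the members more closely than transcript length, protein length, number of fingers or mean level did. The GC content of the transcript and the log2 ratio had a Spearman correlation of -0.90 across the 249 members, as a description, since all points come from the same 2 libraries. The 45 members at least 2-fold higher had transcripts with 33.2% to 43.9% GC (median 37.5%). The 73 members with a log2 ratio under 0 had 40.4% to 71.1% (median 59.6%). The order held for separate parts of the transcript, with a Spearman correlation of -0.86 for the coding sequence, -0.84 for the fingers (241 genes) and -0.82 for the 3′ UTR (248 genes). It was weaker for the 5′ UTR at -0.35. Transcript length gave 0.31, protein length 0.01 and the number of fingers 0.11.

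The same order was present over all genes, and the members lay close to genes of equal GC content. Under 40% GC, 32 of 50 members (64.0%) were at least 2-fold higher, beside 54.5% of all 1749 genes in that range, and the median log2 ratio was 1.09 for the members and 1.06 for all genes. From 40% to 45% GC, 13 of 68 members (19.1%) were at least 2-fold higher, beside 15.0% of all genes, with medians of 0.71 and 0.62. At 45% GC or more no member was at least 2-fold higher. Of all genes few were, with 2.29% from 45% to 50% GC, 0.645% from 50% to 60% and 1.09% at 60% or more. Medians there were 0.33 over the 39 members from 45% to 50% GC (all genes 0.19), -0.10 over the 56 from 50% to 60% (all genes -0.22) and -0.39 over the 36 at 60% or more (all genes -0.39).

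**Figure D3:**
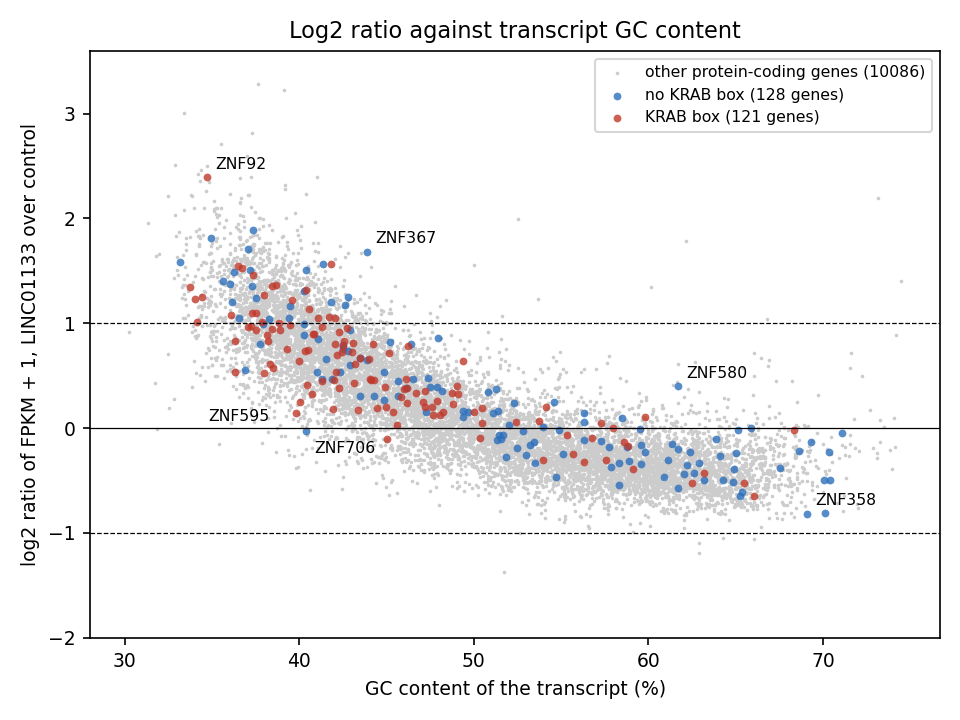
Log2 ratio of FPKM + 1, LINC01133 over control (vertical), against the GC content of the transcript in percent (horizontal), with the 249 members in red (KRAB box) or blue (none) and the other 10086 protein-coding genes past the filter in grey. The members run from ZNF92 (34.7% GC, log2 ratio 2.39) down to ZNF358 (69.1% GC, -0.82) along the band of the grey points, with ZNF367 and ZNF580 above it and ZNF595 and ZNF706 at its lower edge.

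The trends of the log2 ratio on transcript GC content and length, fitted over all genes past the filter, were then subtracted. That left ZNF367 and ZNF92 as the 2 members at least 2-fold higher, with 0 lower, beside 1.7% and 0.764% of the 11913 genes with a GC value. Of the 10335 protein-coding genes past the filter, 81 were then at least 2-fold higher and 11 lower. Over the members the median was 0.17 after subtraction, beside 0.10 over all genes and 0.09 over the protein-coding ones. Above 0 lay 188 members, beside 7650 of the 11913 genes and 6640 of the protein-coding ones. Across the members the Spearman correlation with GC content was then 0.09. The part of GC content in the result was not tested beyond this subtraction, and with 1 library in each group a difference between the cells and one between the libraries cannot be told apart.

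ZNF367 and ZNF92 kept log2 ratios of 1.29 and 1.18 after subtraction. Next came ZNF12 (0.95), ZNF146 (0.94) and ZNF580 (0.94). ZNF580, with 61.7% GC, measured 1.92 FPKM in the control and 2.85 FPKM in the LINC01133 library, from 81 and 125 fragments, and 15.1% of its exon bases are shared with other genes. The smallest values after subtraction were those of ZNF706 (-0.74), ZNF595 (-0.61), ZNF207 (-0.55), ZNF718 (-0.55) and ZNF761 (-0.52). These 5 had 36.3% to 40.4% GC. ZNF706 was nearly equal, at 5.22 and 5.13 FPKM, ZNF761 measured 1.07 and 1.46 FPKM, and ZNF718 0.698 and 1.46 FPKM. ZNF595 and ZNF718 are neighbours near the end of the short arm of chromosome 4.

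The composition of the fingers can be read by codon position, and the printed sequences show where the members part. Over 224 members with at least 3 fingers, the third codon position of the fingers was G or C in a median of 34.4% of codons in the 39 members at least 2-fold higher. It was 42.1% in the 120 members with a log2 ratio from 0 to 1, and 84.1% in the 65 members with a log2 ratio under 0. The first and second positions differed less, with medians of 40.7%, 44.0% and 52.3%. The third-position values ran from 24.5% to 49.2% in the 39, from 23.4% to 94.0% in the 120 and from 50% to 97.9% in the 65, so the range of the middle group overlapped both others. The groups were cut on the log2 ratio, and all genes were not measured in this way.

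The promoters differed less in composition than the transcripts. A promoter of 300 bases in RefSeq on GRCh38.p14, from 250 bases before the start to 50 after it, was found for 213 members. Its median GC content was 61.7% for the 41 members at least 2-fold higher and 66.2% for the 60 with a log2 ratio under 0, and the Spearman correlation with the log2 ratio was -0.29. The letters CCGGAAG, the core read by ETS factors, searched on both strands, were present in 37.6% of the members' promoters, in 20.4% of 8275 promoters of protein-coding genes past the filter and in 10.7% of all 27305 promoters. Within the members the share was 36.6% for those at least 2-fold higher and 36.7% for those with a log2 ratio under 0. The letters GGGCGG, the core of Sp1 sites, were in 64.8% of the members' promoters and in 72.8% of those of protein-coding genes. Such a match is a description of the letters only.

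A KRAB box was found by letter pattern in the translated coding sequences of 121 members, and 128 had no match. The pattern can miss a divergent box, and it did not match ZNF263, which is known to carry one. Here and in the figures, members without a KRAB box are those without a match. At least 2-fold higher were 23 of the 121 KRAB members and 22 of the 128 others, beside 11.9% of all genes. Under the median of ratios, the trimmed mean of M values and the upper quartile 14, 13 and 8 KRAB members were. Of the others 18, 18 and 12 were, beside 941, 923 and 583 of all 11945 genes. The order of the 2 counts thus reversed under each of these scalings. The median level of the KRAB members was 1.30 FPKM in the control and 2.45 FPKM in the LINC01133 library, and that of the others 3.40 and 4.68 FPKM. The median log2 ratio was 0.47 for KRAB members and 0.15 for the others, and the latter turned to -0.10 with upper quartile scaling. The median GC content moved with it, at 43.1% for KRAB members and 51.4% for the others, and 60.3% of KRAB members but 35.2% of the others lay under 45% GC. Under 40% GC the order of the medians from the deposited values was the other way round. There 17 of 32 KRAB members (median log2 ratio 1.01) and 15 of 18 others (1.30) were at least 2-fold higher, beside 54.5% of all genes. After subtraction of the trends the medians were 0.12 and 0.19. The difference between the classes was not tested.

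SCAN, a domain for pairing with other SCAN proteins, was found in 12 members, of which ZNF24 alone (8.3%) was at least 2-fold higher. Chromosome 19 held 82 members and 13 of them (15.9%) were at least 2-fold higher, against 32 of the 167 (19.2%) on other chromosomes. The share over all genes was 11.9%. Within chromosome 19, the 59 KRAB members had a median GC content of 43.1% and a median log2 ratio of 0.46, and the 23 without KRAB 61.7% and -0.22. The members held from 0 to 33 fingers with a median of 9. ZNF462 had the most, at 33, followed by ZNF142 with 31 and ZNF646 with 30. ZNF462 measured 1.65 and 2.65 FPKM, ZNF142 8.20 and 7.12 FPKM, and ZNF646 12.4 and 10.5 FPKM.

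By position, 20 clusters of at least 5 listed ZNF genes, with gaps of no more than 500 kb, held 276 of the 466 genes and 116 members. The cluster on chromosome 7 from 64.0 to 65.4 Mb, singled out after its values were seen, had the largest median log2 ratio, 1.44 over 6 members. Of the 6, 4 were at least 2-fold higher with the deposited values and also under each of the 3 other scalings. With the deposited values these were ZNF92, ZNF117, ZNF138 and ZNF680, and ZNF680 measured 0.457 and 2.71 FPKM. ZNF736 measured 0.801 and 2.50 FPKM, ZNF273 0.708 and 1.46 FPKM, and ZNF107 lay just under the mean of 1. The eighth gene, ZNF727, measured 0.228 and 0.256 FPKM from 6 and 7 fragments. The median GC content of the 6 members was 35.7% and their median after subtraction of the trends 0.22. After subtraction ZNF92 (1.18) alone was at least 2-fold higher, and the other members ran from -0.35 (ZNF273) to 0.50 (ZNF138).

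On chromosome 19 from 19.7 to 22.0 Mb, 10 members had a median log2 ratio of 0.98 and a median GC content of 38.5%, and 4 were at least 2-fold higher. The share over all genes was 11.9%, and under 40% GC it was 54.5%. After subtraction of the trends the median of the 10 was 0.03. ZNF708, named after its value was seen, had the largest log2 ratio of the 10, at 0.413 and 2.89 FPKM. From 55.5 to 56.6 Mb on the same chromosome, 10 members had a median log2 ratio of -0.27 and a median GC content of 65.4%, and ZNF580 was the only one above 0. The 17 members from 57.2 to 58.5 Mb had a median of 0.19, which turned to -0.06 with upper quartile scaling. On chromosome 7 from 149.1 to 149.9 Mb all 10 listed genes were members, and their median was -0.04 at a GC content of 57.0%. Neighbouring members share sequence and composition, and they are not independent of each other.

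**Figure D4:**
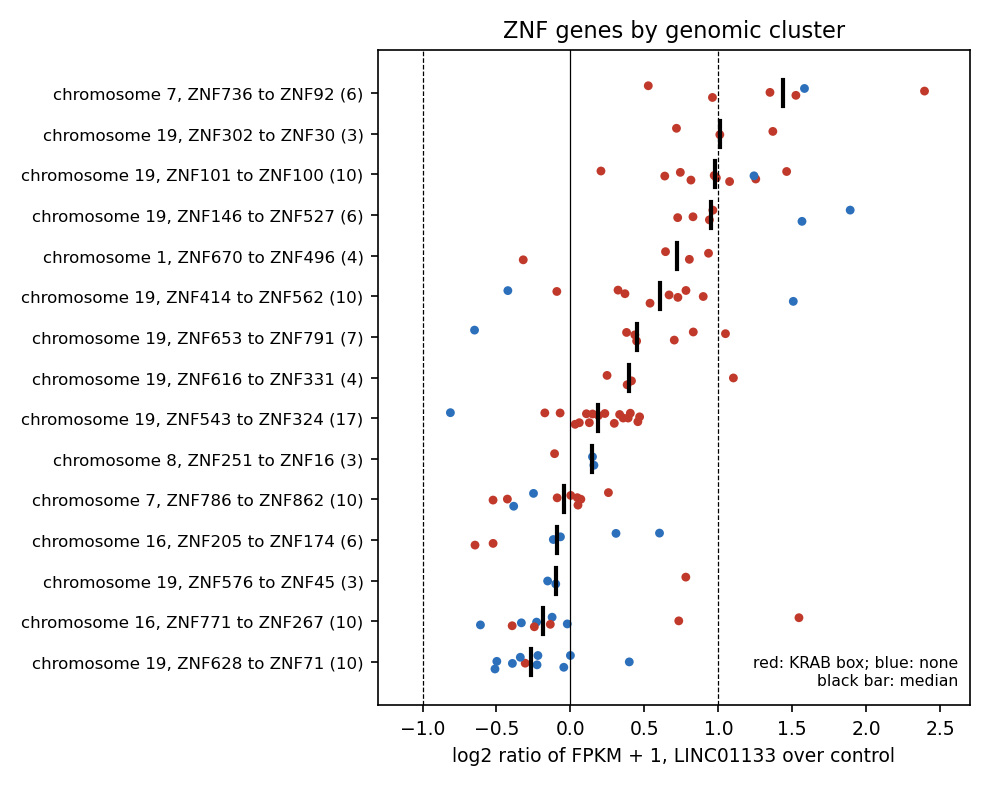
Log2 ratio of FPKM + 1, LINC01133 over control (horizontal), of each member (red with and blue without a KRAB box) in the genomic clusters with at least 3 members, which are named by chromosome and first and last member with the number of members, with a black bar at the median. The chromosome 7 cluster from ZNF736 to ZNF92 (median 1.44) is at the top and the chromosome 19 cluster from ZNF628 to ZNF71 (median -0.27) at the bottom.

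Some members differ in name by a letter only and belong to families of close relatives, which were looked at after the values were seen. ZNF354A measured 1.19 and 3.58 FPKM and ZNF354B 1.02 and 3.71 FPKM, and both were at least 2-fold higher. They share 20.7% and 15.4% of their 50-base windows with another gene, so fragments could be assigned to either. ZNF286A, at 0.718 and 1.63 FPKM, shares 68.9% of its windows and is the least certain of these. ZNF33A measured 0.925 and 2.85 FPKM, against 0.615 and 1.41 FPKM for ZNF33B. In all, 64 members shared more than 10% of their exon bases or windows with another gene, among them 13 of the 45. Without these 64, 32 of 185 members were at least 2-fold higher.

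Of 11 KRAB proteins linked to retroelements, heterochromatin or repression, 4 were members. ZNF267 (given above) and ZNF33A, at 0.925 and 2.85 FPKM, were at least 2-fold higher. These 2 are 50% of the 4, beside 11.9% of all genes. ZNF33A lay at the threshold, with a log2 ratio of 1.0, and was under it under the median of ratios (0.85), the trimmed mean of M values (0.85) and the upper quartile (0.70). After subtraction of the trends none of the 4 was at least 2-fold higher, and ZNF33A was at 0.08. ZNF202, a repressor of lipid genes, measured 3.44 and 3.95 FPKM, and ZNF274, which brings SETDB1 to the 3′ ends of ZNF genes, 2.37 and 2.51 FPKM, with a ratio of 1.06 (0.907 to 1.24). The other 7 lay under the mean of 1. ZNF91, which silences SVA elements, measured 0.141 and 0.714 FPKM from 23 and 121 fragments, and ZNF93, which silences LINE-1 elements, 0.0914 and 0.489 FPKM. ZNF10, the source of the KRAB domain in many synthetic repressors, measured 0.323 and 0.476 FPKM, and ZNF445, a keeper of imprints, 0.687 and 1.07 FPKM. The other 3, ZNF268, ZNF649 and ZNF765, were under 1 FPKM in both libraries.

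Of 24 transcription factors and chromatin partners, 23 were members, and 5 of them were at least 2-fold higher: ZNF24, ZNF148, ZNF644, ZNF281 and ZNF292. These 5 are 21.7% of the 23, beside 11.9% of all genes, and the median log2 ratio was -0.02. The count was 4 with the median of ratios, 4 with the trimmed mean of M values and 3 with the upper quartile. ZNF292 lost the call under all 3 (0.91, 0.91 and 0.78) and ZNF281 under the upper quartile (0.82). After subtraction of the trends none of the 23 was at least 2-fold higher. ZNF281, a factor of pluripotent and mesenchymal cells, measured 6.27 and 15.8 FPKM from 481 and 1260 fragments. ZNF24 measured 3.35 and 11.4 FPKM, ZNF148 (ZBP-89) 0.718 and 3.53 FPKM, and ZNF644, a partner of the methyltransferases EHMT1 and EHMT2, 1.80 and 6.18 FPKM. ZNF292 measured 0.496 and 2.1 FPKM, a log2 ratio of 1.05, and was at -0.08 after subtraction of the trends. All 5 had transcripts with 35.6% to 41.8% GC.

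Several members of this list are close relatives, and their values are given with their GC content. ZNF143, an activator at promoters, measured 1.64 and 3.58 FPKM (42.5% GC), and its paralogue ZNF76 8.59 and 6.74 FPKM (58.9% GC). ZNF532, ZNF592 and ZNF687 bind the chromatin reader ZMYND8 together. ZNF532 measured 3.44 and 5.09 FPKM (45.6% GC), ZNF592 6.98 and 5.57 FPKM (51.8% GC) and ZNF687 13.9 and 10.8 FPKM (58.3% GC). Of the paralogues ZNF503 (62.0% GC, log2 ratio -0.43) and ZNF703 (65.2% GC, -0.02), the latter is amplified in breast cancer and measured 13.5 and 13.3 FPKM. The log2 ratio was 0.79 for ZNF143, -0.31 for ZNF76, 0.45 for ZNF532, -0.28 for ZNF592 and -0.33 for ZNF687. The part of GC content in these values was not tested. ZNF217, also amplified in breast cancer, measured 3.69 and 6.43 FPKM.

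The remaining members of the list had log2 ratios between -0.49 (ZNF219) and 0.75 (ZNF131). ZNF423, a factor of neural and fat precursors, measured 4.32 and 2.86 FPKM, and ZNF335, part of a histone methyltransferase complex, 6.94 and 5.44 FPKM. ZNF384, a fusion partner in leukaemia, measured 5.78 and 5.20 FPKM, ZNF263 5.66 and 5.15 FPKM, and ZNF609 10.4 and 9.92 FPKM. ZNF395 measured 12.3 and 9.56 FPKM but shares 34.9% of its exon bases with other genes. ZNF516 was nearly equal, at 5.03 and 5.09 FPKM. ZNF410 lay under the mean of 1, at 0.0790 and 0.0949 FPKM, and shares 45.9% of its exon bases with other genes.

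Of 13 ZNF genes with roles in RNA, ribosomes, mitosis or SUMO, 12 were listed and all 12 were members. ZNF326, which links transcription to splicing in the DBIRD complex, measured 1.19 and 4.06 FPKM, and ZNF638, which takes part in silencing of unintegrated viral DNA, 3.07 and 8.12 FPKM. These 2, 16.7% of the 12, were at least 2-fold higher, beside 11.9% of all genes. The median log2 ratio over the 12 was 0.60. The count was 1, 1 and 0 and the median 0.42, 0.41 and 0.22 with the median of ratios, the trimmed mean of M values and the upper quartile. ZNF638 lost the call under each (0.98, 0.98 and 0.80) and ZNF326 under the upper quartile (0.88). ZNF598, the ubiquitin ligase of collided ribosomes, measured 18.3 and 15.4 FPKM, and ZNF346, a double-stranded RNA binder, 7.95 and 6.86 FPKM. ZNF207 (BuGZ), a spindle and kinetochore protein, measured 6.68 and 10.3 FPKM, and ZNF451, a SUMO ligase, 0.684 and 1.94 FPKM. The splicing factor ZNF830 measured 4.01 and 7.32 FPKM, the nucleolar protein ZNF330 8.21 and 13.5 FPKM, ZNF106 3.27 and 5.72 FPKM, and ZNF827, which brings chromatin remodellers to telomeres, 2.29 and 3.32 FPKM. After subtraction of the trends the median over the 12 was 0.14 and none was at least 2-fold higher.

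The partners of KRAB proteins were expressed in both libraries, since all 25 genes of the repression machinery passed the filter. TRIM28, the corepressor that KRAB recruits, measured 194 FPKM in the control and 128 FPKM in the LINC01133 library, from 12267 and 8398 fragments, a ratio of 0.658 (0.640 to 0.676). The methyltransferase SETDB1 measured 5.05 and 5.28 FPKM and its cofactor ATF7IP 4.21 and 8.84 FPKM. EHMT2, another H3K9 methyltransferase, measured 27.1 and 18.4 FPKM. The 3 heterochromatin proteins had unlike ratios: CBX3 measured 23.8 and 73.4 FPKM, CBX5 20.4 and 37.5 FPKM, and CBX1 54.6 and 70.6 FPKM. The maintenance methyltransferase DNMT1 measured 86.9 and 77.7 FPKM and its guide UHRF1 43.2 and 38.4 FPKM.

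At least 2-fold higher were 6 of the 25: ATRX (1.29 and 6.22 FPKM), CBX3, TRIM33 (1.63 and 6.52 FPKM), SMARCAD1 (1.0 and 4.57 FPKM), TASOR (2.07 and 6.44 FPKM), a subunit of the HUSH silencing complex, and MORC3 (1.04 and 3.66 FPKM). None was at least 2-fold lower. The 6 are 24% of the list, beside 11.9% of all genes. Over the 25 the median log2 ratio was 0.36, and it turned to -0.05 with upper quartile scaling. With that scaling TASOR (0.92) and MORC3 (0.87) lost the 2-fold call, which left 4 of 25 higher, and TRIM28 (-1.02) was at least 2-fold lower. These 6 genes had 36.0% to 39.5% GC, while TRIM28 had 63.7% and EHMT2 60.9%. After subtraction of the trends none of the 25 was at least 2-fold higher or lower, and TRIM28 was at -0.10.

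**Figure D5:**
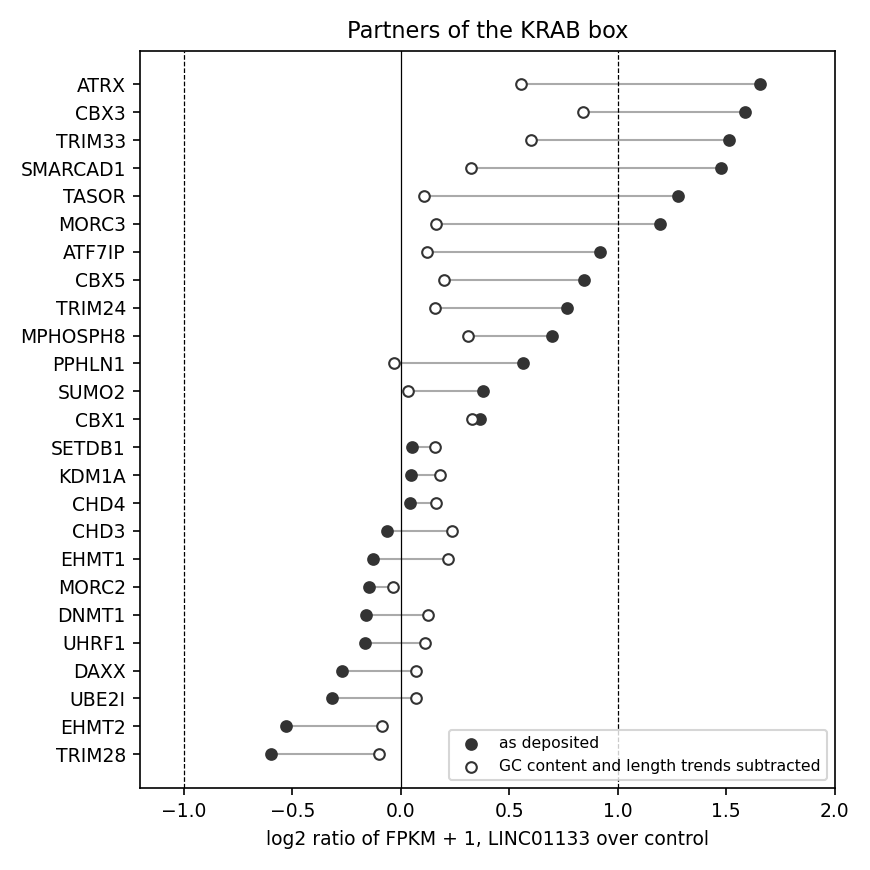
Log2 ratio of FPKM + 1, LINC01133 over control (horizontal), for the 25 genes of the KRAB repression machinery, from the deposited values (filled) and with both trends subtracted (open). ATRX is at 1.66 and TRIM28 at -0.60 from the deposited values, and with the trends subtracted CBX3 is at 0.84 and TRIM28 at -0.10.

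Other genes of the same finger type, named ZBTB, ZSCAN, ZKSCAN or ZFP with a number, gave a similar description. Among the 58 that passed the same filter, 11 were at least 2-fold higher and 0 lower, with a median log2 ratio of 0.31, beside 0.37 for the ZNF members. The share of all genes at least 2-fold higher was 11.9%. Under the median of ratios, the trimmed mean of M values and the upper quartile the count was 7, 7 and 4 and the median 0.18, 0.17 and 0.03. Of the 32 ZBTB genes, which carry a pairing domain in place of KRAB, 5 were at least 2-fold higher. Of the 10 ZFP genes 5 were. Over the 58 genes the median GC content was 46.1%, beside 45.7% for the ZNF members. After subtraction of the trends 1 of the 58, a ZFP gene, was at least 2-fold higher and 0 were lower, and the median was 0.14. The difference between the families was not tested.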

How the data were processed

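RNA was measured in 1 control and 1 LINC01133 overexpression library. The authors deposited 1 value for each gene and library; the labels do not name the unit. It was read here as FPKM, because the deposited values times the exon length in GENCODE 29 gave whole numbers of fragments, within 0.02, for 94.5% and 94.4% of genes. GRCh38, HTSeq 0.6.0, HISAT2 2.1.0 and Bowtie2 2.2.3 were used, per the submitters' processing notes. The annotation and the strand of counting are not given in the sources used here, so overlapping and antisense genes are uncertain. The design's FPKM branch was used, with a pseudocount of 1 and no test. Intervals were exact (Clopper-Pearson on the conditional share, 95%). Lowess trends (span 0.3) on transcript GC content, then length, were subtracted over all genes, keeping their median. Scripts ran in Python 3.11.15 with scipy 1.17.1 and statsmodels 0.14.6 and were tested on simulated data.

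Members and lists were chosen with earlier results of these data known. Named were the 6 highest members, the 10 largest and 10 smallest log2 ratios, the 5 largest and 5 smallest after subtraction, the 3 on each side of the threshold, the 3 with most fingers, members of the role lists, LINC01133 and the KRAB machinery. Alternatives were other scalings, pseudocounts, filters and fold thresholds.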

Additional observations from a re-analysis of the deposited data

How the results depend on the processing

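The value of 45 members at least 2-fold higher became 32 with the median of ratios, 31 with the trimmed mean of M values and 20 with upper quartile scaling, which also gave 2 lower. Over all 11945 genes 941, 923 and 583 were higher under these scalings, and 465 lower with the upper quartile. It was 84 higher and 1 lower with a pseudocount of 0.1, and 66 higher with 0.5. It was 32 of 158 members with a mean of at least 2 FPKM, 10 of 67 with a mean of at least 5, and 46 of 466 ZNF genes with no filter. It was 2 after subtraction of the GC content trend alone or of both trends. At 1.5-fold 94 were higher and 5 lower, and at 4-fold 1 was higher. Shares over all genes are not given here for the pseudocounts, the filters at 2 and 5, or the 1.5-fold and 4-fold lines. The member counts under those settings thus show no surplus particular to the members. The median log2 ratio of the members was 0.24, 0.23 and 0.089 under the 3 scalings in that order, 0.53 and 0.46 with the pseudocounts of 0.1 and 0.5, 0.20 and -0.12 with the filters at 2 and 5, and 0.28 with none. It was 0.20 after the GC trend and 0.17 after both. With current gene symbols, chosen after the data were seen, it was 0.36. Without members that share exons or windows, also chosen after the data were seen, it was 0.41. The log2 ratio of ZNF292 turned to -0.014 after the GC trend and -0.081 after both. The higher counts and medians at low pseudocounts follow from less damping of low values, and the cause was not tested for the other shifts. No paired analysis was possible because neither group held more than 1 library, and for that reason no replicate could be left out. The fewest fragments behind a member in the control were 24 (ZNF92).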
